A study of Mus musculus with 2 samples.

Results

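The 6 mice given either Fc-enhanced antibody against mouse GITR were compared with the other 6 mice of the study. They were chosen by the treatment recorded for each cell in the authors' cell annotation, as GA-aFuc (3 mice) or GITR/Syn GA-aFuc (3 mice). The comparison group held the 3 mice given the N297A antibody and the 3 untreated mice. The 6 Fc-enhanced mice contributed 9730 of 19210 annotated cells and the other mice 9480. All mice carried human Fc receptor genes (hFcgR, also labelled Human FCR mice) and a subcutaneous MC38 tumour, a mouse colon carcinoma line. Antibodies were human IgG1 Fc variants, injected into the peritoneum 2 times at an interval of 3 days and 100 µg per mouse, and PBS was the alternative to antibody in the protocol. The sample labels give a time of 4 days post treatment. The labels give no age or sex, and they do not spell out GA, aFuc or Syn. CD45+ immune cells were sorted from dissociated tumours, tagged by mouse with hashing antibodies, and sequenced as 3' single-cell libraries.

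GITR, the product of Tnfrsf18, belongs to the TNF receptor superfamily, gives T cells a costimulatory signal and is found at high level on regulatory T cells (Tregs) of tumours. An antibody bound to a cell can also engage Fc receptors on natural killer (NK) cells and myeloid cells, which then kill or engulf the marked cell. The Fc sugar sets how strongly an IgG binds these receptors: the N297A substitution removes the sugar and most Fc receptor binding, whereas other Fc changes strengthen it. NK cells and CD8 T cells kill through perforin and granzymes, and myeloid cells supply cytokines, chemokines and phagocytosis. The comparison addressed which immune populations and which genes differed where the antibody Fc was the enhanced form.

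Library 1 held 2 N297A mice, 2 untreated mice and 1 mouse of each Fc-enhanced antibody, and library 2 held 2 mice of each Fc-enhanced antibody with 1 N297A mouse and 1 untreated mouse. Mice were read as the 12 runs of rising barcode in the annotation. In library 2 the most abundant hashtag was that of the run in 10476 of 10476 cells, and library 1 hashtags were not analysed here. The 2 libraries shared 34 barcodes. Each mouse had 1381 to 1925 annotated cells, and the median depth in library 2 was 12075 unique molecular identifiers (UMIs) per cell. In library 2, GA-aFuc mouse 2 and GITR/Syn GA-aFuc mouse 2 had 567 and 551 CPM (UMI counts scaled to a total of 1000000) of Xist, against 1.64 to 1.98 in the other 4 mice, so both mice of library 2 with high Xist, the transcript of the inactive X, were Fc-enhanced; the sexes in library 1 are not known here. Of the fixed markers of each annotated type, all 6 for NK cells, 6 for Tregs, 5 for CD8 T cells and 7 for macrophages were highest in that type. For CD4 T cells 0 of 5 were, for monocytes 4 of 7 were, and for conventional dendritic cells of type 2 (cDC2) 3 of 6 were. The 24 annotated Tregs of library 2 also held much macrophage RNA. Their C1qa stood at 2266 CPM, against 5062 CPM in macrophages, 600 CPM in CD4 and 140 CPM in CD8 T cells. Apoe stood at 4176 CPM, against 7567, 1389 and 269 CPM in the same order. The source of this RNA was not tested. No label says whether mice shared a cage or a litter.

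Each of the 58 author clusters was expressed as a share of the mouse's annotated cells and compared 6 mice against 6, with library as a stratum. By edgeR's quasi-likelihood test, 3 of 58 clusters passed an adjusted p of 0.05 (5.17%), all of them smaller in Fc-enhanced mice. These were the Treg cluster 50, NK cluster 19 and cDC2 cluster 64. At an unadjusted p under 0.05 there were 12 clusters, 8 smaller and 4 larger. Of the 24 macrophage clusters 18 had a larger estimated share in Fc-enhanced mice, and of the 15 monocyte clusters 12 had a smaller one. At the level of the 10 annotated cell types 2 passed (20%), with Tregs lower and macrophages higher. All shares of a mouse add up to its annotated cells, so they are not independent of each other.

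**Figure D1:**
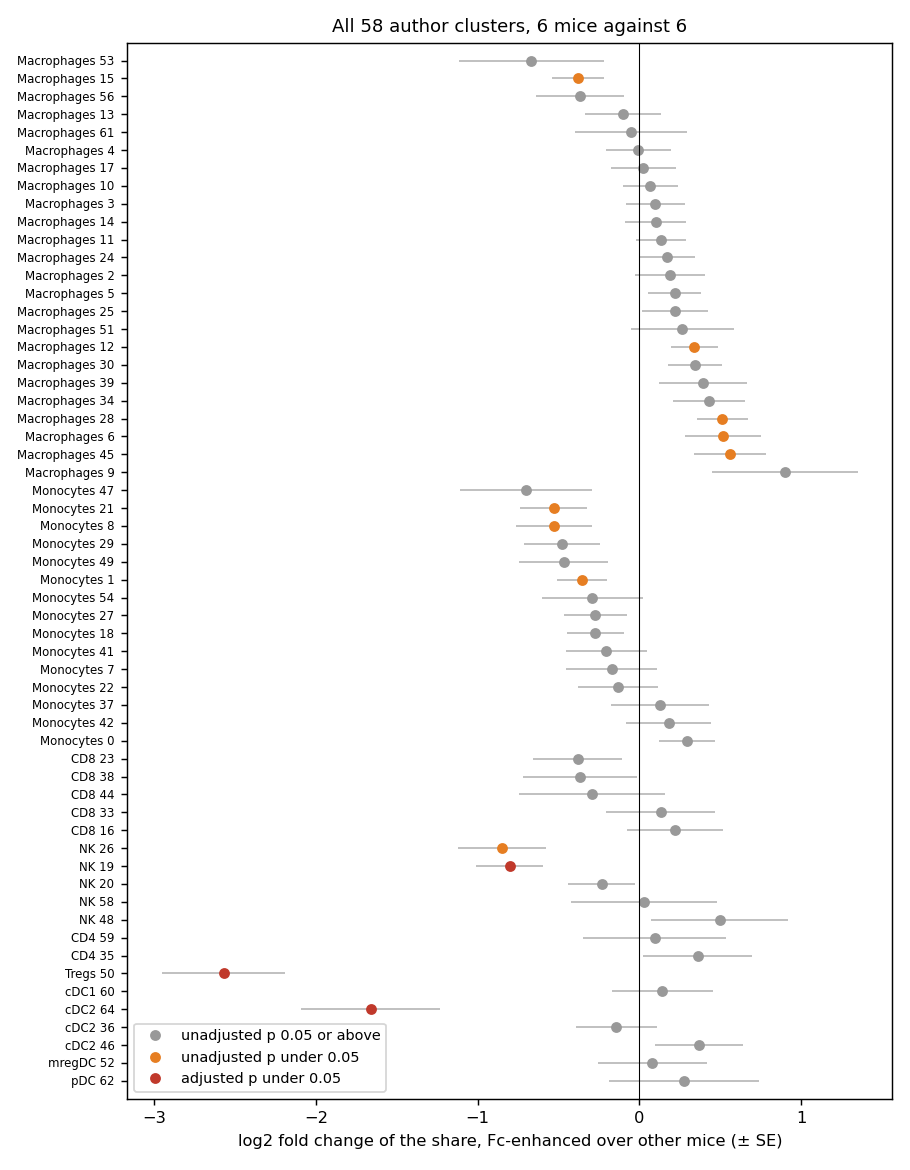
Log2 fold change of the share of each author cluster in 6 Fc-enhanced mice over 6 other mice (horizontal axis, bars are SE), with clusters grouped by annotated cell type. Red points are the 3 clusters past the adjusted threshold and orange points the others with an unadjusted p under 0.05. Most macrophage points lie to the right of 0 and most monocyte points to the left.

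Treg cluster 50, the entire annotated Treg type, held 0.0519% to 0.217% of cells in the Fc-enhanced mice (median 0.0905%) and 0.447% to 1.69% in the other mice (median 0.797%). The groups did not overlap. The log2 fold change was -2.57 ± 0.38 (SE, n = 6 and 6) with an adjusted p of 0.000247 in edgeR, and the exact two-sided permutation of mice within library gave p = 0.00444, the smallest value that its 225 arrangements allow. Within library 1 the log2 fold change was -2.41 and within library 2 -2.77. GA-aFuc mice were at -2.40 and GITR/Syn GA-aFuc mice at -2.71 against the other mice, and the difference between these antibodies was 0.31 ± 0.67 (SE, edgeR adjusted p = 0.938). Fewer Tregs and fewer Tregs recovered or recognised cannot be told apart in shares of sorted cells.

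NK cluster 19, led by Gzma and by the inhibitory or activating receptor genes Klrb1c, Klra8 and Klra4, was the second population to pass. In the Fc-enhanced mice it held 1.89%, 1.92% and 1.30% (GA-aFuc mice 1 to 3) and 1.45%, 1.39% and 0.675% (GITR/Syn GA-aFuc mice 1 to 3). The N297A mice had 2.68%, 2.81% and 2.51%, and the untreated mice 3.16%, 2.36% and 2.32%. Every Fc-enhanced mouse was below every other mouse, with group means of 1.44% ± 0.454 and 2.64% ± 0.318 (SD, n = 6 each). The log2 fold change was -0.80 ± 0.21 (SE), with an adjusted p of 0.0407 in edgeR and an exact permutation p of 0.00444. The 2 libraries gave -0.72 and -0.88 separately. The adjusted p rose above the threshold, to between 0.051 and 0.184, when N297A mouse 1, 2 or 3, Untreated mouse 1 or 3, GITR/Syn GA-aFuc mouse 1 or 2, or GA-aFuc mouse 3 was left out, and the fold change then stayed between -0.91 and -0.69 over the 12 omissions. With macrophages and monocytes left out of the denominator it was -0.61, with an adjusted p of 0.0526.

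**Figure D2:**
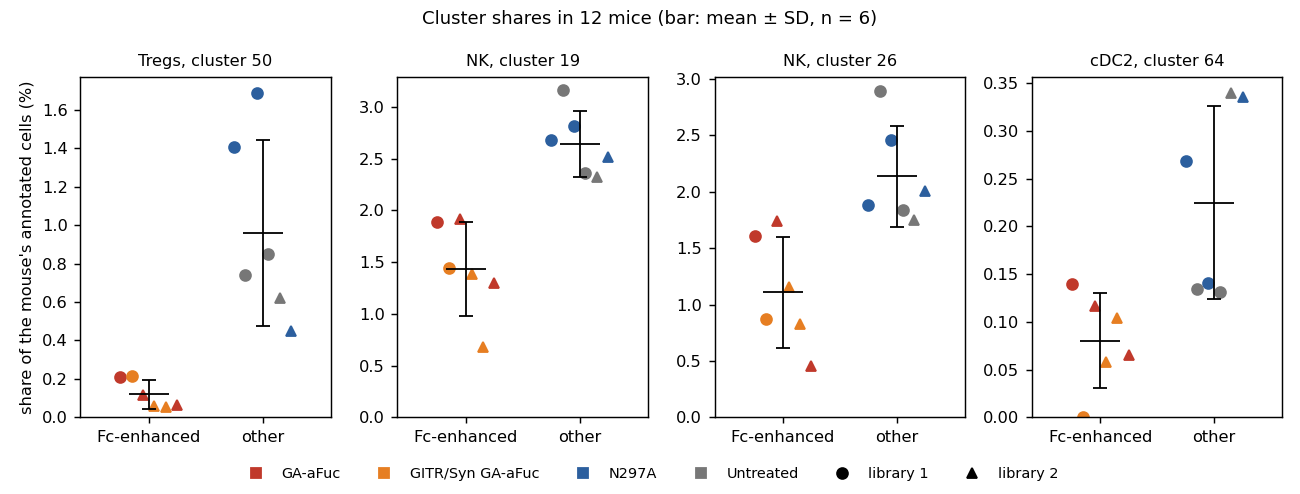
Share of annotated cells per mouse (vertical axis, percent) for Treg cluster 50, NK clusters 19 and 26 and cDC2 cluster 64, by group. Circles are library 1 and triangles library 2, colours are treatments, and bars are the mean ± SD of 6 mice. For clusters 50, 19 and 26 every Fc-enhanced mouse lies below every other mouse, whereas for cluster 64 the highest Fc-enhanced mouse lies among the 3 lowest other mice.

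The neighbouring NK cluster 26 carried the integrin gene Itga2, a marker of mature circulating NK cells, beside Gzma and the same Klr genes. It held 0.455% to 1.74% of cells in the Fc-enhanced mice (median 1.01%) and 1.75% to 2.90% in the other mice (median 1.94%), again without overlap. The log2 fold change of -0.85 ± 0.27 (SE) had an adjusted p of 0.0699 in edgeR and so did not pass, and the exact permutation p was 0.00444. It did pass without GA-aFuc mouse 2 (adjusted p = 0.013) and without the 2 high-Xist mice of library 2 (adjusted p = 0.00606).

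The other 3 NK clusters, 20, 48 and 58, were led by the granzyme genes Gzmc, Gzmd, Gzme and Gzmf, and none of them passed. Cluster 20 held 1.75% ± 0.601 and 2.20% ± 0.400 (SD, n = 6 each; log2 fold change -0.23 ± 0.20 SE). Cluster 48 held 0.893% ± 0.637 and 0.789% ± 0.435 (0.50 ± 0.42 SE), and cluster 58 0.511% ± 0.282 and 0.533% ± 0.270 (0.03 ± 0.45 SE). As a fraction of NK cells, cluster 48 made up 14.3% ± 6.76 in Fc-enhanced and 9.10% ± 3.14 in other mice, with an adjusted p of 0.0677 in edgeR. Cluster 26 made up 19.2% ± 3.74 of NK cells against 25.7% ± 0.836 (exact permutation p = 0.00444, n = 6 and 6; edgeR adjusted p = 0.228). NK cells as a whole held 5.69% ± 2.21 and 8.31% ± 1.62 (log2 fold change -0.43 ± 0.23 SE, edgeR adjusted p = 0.222).

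The genes that lead these NK clusters also differed between the groups within NK cells, which bears on the counts of cells. In clusters 19 and 26, 1 of the 10 leading genes (Klra8) passed the expression test described below, and 8 and 9 of 10 had an unadjusted p under 0.05. Of all 8672 NK genes tested, 1047 did. NK cells of library 2 were therefore reassigned to the nearest cluster after leaving out all 1047 genes with such a p, which returned 79.5% of cells to their own cluster. Cluster 19 then held 0.831% to 2.09% in the 4 Fc-enhanced mice and 2.38% and 2.62% in the 2 others, still without overlap (exact permutation p = 0.0667, the smallest that 4 against 2 mice allow). Cluster 26 held 0.519% to 1.79% against 1.87% and 2.07%, also without overlap, with an exact p of 0.133. A change in cell number and a change in the expression that places a cell in a cluster cannot be told apart in these data.

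The cDC2 cluster 64 was very small. Against other cDC2 its leading genes were cell cycle genes such as H1f5, Top2a and Mki67, and against all cells they were Plet1, H2-Oa and others, including the mast and progenitor cell gene Kit. Its share was 0.140%, 0.116% and 0.0649% in GA-aFuc mice 1 to 3, and 0%, 0.0578% and 0.104% in GITR/Syn GA-aFuc mice 1 to 3. The N297A mice had 0.268%, 0.141% and 0.335%, and the untreated mice 0.135%, 0.131% and 0.339%, so GA-aFuc mouse 1 fell among the other group. The log2 fold change was -1.66 ± 0.43 (SE), with an adjusted p of 0.0468 in edgeR and an exact permutation p of 0.0133 (n = 6 and 6). Only 30 cells in all mice stood behind this value, and the call was lost, at adjusted p between 0.051 and 0.191, when any of 9 mice was left out (N297A 1, 2 or 3, Untreated 1 or 3, GITR/Syn GA-aFuc 1, 2 or 3, or GA-aFuc 3). DESeq2 gave a log2 fold change of -1.73 with an adjusted p of 0.312. The cDC2 type as a whole held 2.46% ± 0.350 and 2.39% ± 0.563 (SD, n = 6 each; log2 fold change -0.01 ± 0.23 SE), and cluster 64 made up 3.43% ± 2.37 of it in Fc-enhanced and 9.15% ± 2.71 in other mice.

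Macrophages held 53.3%, 58.3% and 53.6% of cells in GA-aFuc mice 1 to 3 and 51.7%, 58.7% and 56.6% in GITR/Syn GA-aFuc mice 1 to 3. They held 41.3%, 49.1% and 47.3% in the N297A mice and 42.4%, 45.4% and 53.3% in the untreated mice. The groups overlapped through Untreated mouse 3. The log2 fold change was 0.21 ± 0.06 (SE, edgeR adjusted p = 0.0281; exact permutation p = 0.00444), and the call was lost without Untreated mouse 1, N297A mouse 3, GA-aFuc mouse 1 or 2, or any GITR/Syn GA-aFuc mouse, at adjusted p between 0.0532 and 0.135. No macrophage cluster passed by itself. The 4 with an unadjusted p under 0.05 and a larger share were cluster 28 (2.10% ± 0.351 against 1.58% ± 0.237), cluster 45, led by mitosis genes such as Ccnb2 and Birc5 (1.35% ± 0.243 against 0.908% ± 0.188), cluster 12, led by Ccl8, Pf4 and Mrc1 (2.95% ± 0.349 against 2.37% ± 0.250), and cluster 6, led by the interferon-gamma-inducible genes Gbp2b and Cxcl9 (3.69% ± 0.840 against 2.51% ± 0.848; SD, n = 6 each). Their adjusted p in edgeR ranged from 0.0699 to 0.209. Of the 10 leading genes of each, 0 had an unadjusted p under 0.05 between the groups in clusters 28, 45 and 6, and 2 did in cluster 12. Of all 13647 macrophage genes tested, 666 did.

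Monocyte clusters 21, 1 and 8 had smaller shares at an unadjusted p under 0.05. Cluster 21, led by the interferon-stimulated genes Ifit1bl1, Rsad2 and Ifit1, held 1.81% ± 0.582 against 2.39% ± 0.485 (SD, n = 6 each), with overlapping groups and N297A mouse 3 highest at 3.29%. Cluster 1, led by Il1r2, Il1b and Ccr2, held 3.42% ± 0.522 against 4.27% ± 0.398, and cluster 8, led by Slpi and Chil3, held 2.43% ± 0.863 against 3.33% ± 0.751. None passed after adjustment (adjusted p 0.187 to 0.195 in edgeR). Of their 10 leading genes, 7, 2 and 3 had an unadjusted p under 0.05 between the groups within monocytes, so for cluster 21 in particular cell number and expression cannot be told apart. Of all 11313 monocyte genes tested, 1147 had such a p. Counted as fractions of their own cell type, 1 of 54 clusters passed (1.85%). It was macrophage cluster 15, led by Sox5 and Fcrl5, which made up 3.93% ± 0.656 of macrophages in Fc-enhanced mice and 5.43% ± 1.04 in the others (log2 fold change -0.58 ± 0.14 SE, edgeR adjusted p = 0.0292). That call was lost without GA-aFuc mouse 1, GITR/Syn GA-aFuc mouse 1 or 2, Untreated mouse 2 or N297A mouse 3, at adjusted p between 0.0537 and 0.163. Monocyte cluster 0, led by Inhba, Nos2 and Slc7a11, made up 15.9% ± 3.09 of monocytes against 10.6% ± 1.03, with an adjusted p of 0.0677. Of their 10 leading genes, 5 in cluster 15 and 8 in cluster 0 had an unadjusted p under 0.05 between the groups. Of all 13647 macrophage genes tested, 666 did.

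The 2 CD4 clusters did not pass the test. Cluster 35 held 0.539% ± 0.319 and 0.507% ± 0.157 of cells, and cluster 59 held 0.318% ± 0.239 and 0.368% ± 0.147 (SD, n = 6 each). Their log2 fold changes were 0.36 ± 0.34 and 0.09 ± 0.44 (SE; edgeR adjusted p = 0.566 and 0.895). The 2 Fc-enhanced antibodies differed from each other here: annotated CD4 cells held 1.68%, 1.10% and 0.714% in GA-aFuc mice 1 to 3 and 0.869%, 0.521% and 0.260% in GITR/Syn GA-aFuc mice 1 to 3. That difference was 1.11 on the log2 scale (edgeR adjusted p over the 10 types = 0.0364), and the groups overlapped. No cluster or type had a share effect that differed between the 2 libraries at an adjusted p under 0.05 in the edgeR interaction test.

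Expression was compared in library 2 on UMI counts summed per mouse and cell type, 4 Fc-enhanced mice against N297A mouse 3 and Untreated mouse 3. Levels are CPM of the mouse's counts in that type, scaled by edgeR. CD4 cells, cDC1, mregDC, plasmacytoid dendritic cells and Tregs had too few mice with 10 cells and were not tested alone. With 2 mice in the second group and 1 of each treatment, an effect of either mouse cannot be separated from the comparison. In NK cells 26 of 8672 genes passed an adjusted p of 0.05 (0.3%), 7 higher and 19 lower, and DESeq2 called 11 and 26. CD8 T cells had 2 of 7851 (0.0255%), monocytes 1 of 11313 (0.00884%) and the 4 dendritic cell types pooled 1 of 7852 (0.0127%). In macrophages (0 of 13647, 0%) and cDC2 (0 of 6693, 0%) edgeR's test called none. Those 2 types had 666 and 406 genes at an unadjusted p under 0.05, and 6 and 1 calls by DESeq2.

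The clearest NK differences were higher Ifitm2 and Ifitm1, which encode interferon-induced membrane proteins that restrict virus entry. Ifitm2 stood at 456 and 505 CPM in the GA-aFuc mice and 695 and 641 CPM in the GITR/Syn GA-aFuc mice, against 125 CPM in the N297A and 118 CPM in the untreated mouse. Its log2 fold change was 2.24 ± 0.17 (SE, edgeR adjusted p = 1.27e-05). Ifitm1 stood at 312 and 307 CPM, then 366 and 501 CPM, against 69.98 and 80.6 CPM (2.31 ± 0.20 SE, adjusted p = 3.60e-05). All 4 Fc-enhanced mice lay far above both others for these genes. Ifitm3 moved less and did not pass (0.68 ± 0.15 SE, adjusted p = 0.0741). These genes are close relatives, and the treatment of reads shared by them is not given in these sources.

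Of 14 measured cytotoxic effector genes 3 rose in NK cells (0.0807% of all NK genes did), all of them granzymes of the Gzmc to Gzmf cluster, and 0 passed on the lower side. The mice did not overlap for 6 of 14 members on the higher side and 1 on the lower, against 10.6% and 10.3% of all NK genes, and the list's median log2 fold change was 0.39 (all NK genes 0.01). Gzmd stood at 771 and 832 CPM in the GA-aFuc mice and 1511 and 945 CPM in the GITR/Syn GA-aFuc mice, against 103 CPM in the N297A and 265 CPM in the untreated mouse (2.48 ± 0.32 SE, edgeR adjusted p = 0.0025). Gzme stood at 319, 287, 806 and 324 CPM in the same order, against 24.9 and 82.3 CPM (3.05 ± 0.46 SE, adjusted p = 0.00984). Gzmf overlapped: GA-aFuc mouse 3 had 25.9 CPM, beside 26.5 and 8.76 CPM in the other group, whereas the other 3 Fc-enhanced mice had 627 to 2077 CPM. The perforin gene Prf1 had a log2 fold change of 0.46 ± 0.12 (SE) and did not pass (adjusted p = 0.143). These granzyme genes are near copies of each other, so their separate levels are uncertain. Myo10, an unconventional myosin of cell protrusions, and AA467197 also rose (1.02 ± 0.13 and 0.93 ± 0.16 SE).

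**Figure D3:**
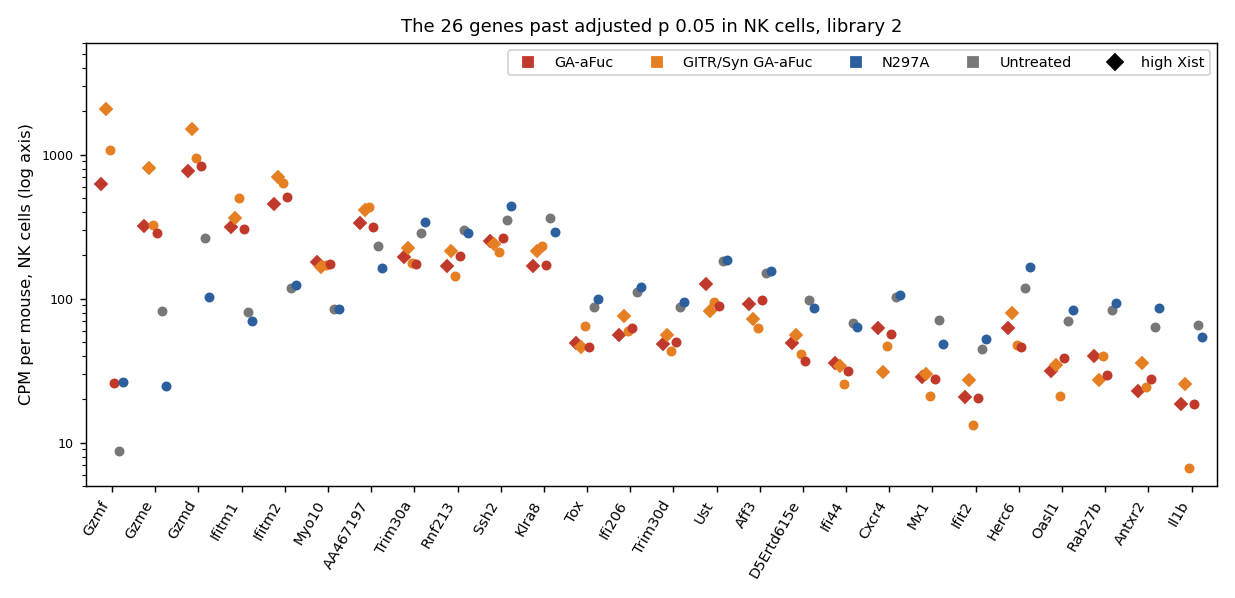
CPM per mouse in NK cells of library 2 (vertical log axis) for the 26 genes past an adjusted p of 0.05, ordered by fold change. Points are mice, colours are treatments and diamonds are the 2 high-Xist mice. In 25 genes the 4 Fc-enhanced mice lie wholly above or wholly below the 2 others, and in Gzmf GA-aFuc mouse 3 lies with the others.

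Interferon-response genes were frequent among the lower NK genes. Of 18 measured members of the type I interferon list, 4 fell (Oasl1, Ifi44, Mx1 and Ifit2) and 2 rose (Ifitm1 and Ifitm2). Of all NK genes 0.219% fell and 0.0807% rose. The mice did not overlap for 11 of 18 members on the lower side and 3 on the higher, against 10.3% and 10.6% of all NK genes. The list's median was -0.58. Oasl1, an oligoadenylate synthetase relative, stood at 31.4, 38.8, 34.9 and 21.2 CPM in the Fc-enhanced mice against 82.9 CPM in the N297A and 70.1 CPM in the untreated mouse (-1.30 ± 0.20 SE, edgeR adjusted p = 0.0128). Mx1, a dynamin-like antiviral GTPase, stood at 21.2 to 30.2 CPM against 48.3 and 70.9 CPM (-1.13 ± 0.22 SE, adjusted p = 0.0448). Outside that list, Herc6, Trim30a, Trim30d, Ifi206 and Rnf213, which are also known to respond to interferon, fell with log2 fold changes of -1.23 to -0.70. Of 13 interferon-gamma genes none passed, 8 did not overlap on the lower side, and the median was -0.43; Cxcl10, a chemokine of that response, stood at 47.9 to 113 CPM against 155 and 170 CPM.

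The remaining lower NK genes had other roles. Rab27b, a small GTPase of secretory granules, stood at 27.4 to 40.1 CPM against 84.1 and 93.3 CPM (-1.34 ± 0.18 SE, edgeR adjusted p = 0.00477), and Antxr2, an anthrax toxin receptor, at 22.8 to 35.8 CPM against 63.9 and 86.1 CPM (-1.45 ± 0.21 SE, adjusted p = 0.00835). The chemokine receptor gene Cxcr4, the transcription factor gene Tox and the Ly49 receptor gene Klra8 fell by 1.08, 0.86 and 0.73 on the log2 scale. Il1b, a cytokine gene of myeloid cells, fell from 53.9 and 65.7 CPM to 6.68 to 25.5 CPM. The macrophage gene Lyz2 moved the same way in the NK cells (35.6 to 64.1 CPM against 67.4 and 126 CPM, adjusted p = 0.113), while the sum of 12 macrophage transcripts overlapped (4966 to 5918 CPM against 5304 and 5652 CPM, 0 of 12 at 0). The part of macrophage RNA in the Il1b difference was not tested. Of 16 glycolysis and hypoxia genes none passed, 7 did not overlap on the higher side (10.6% of all NK genes) and 1 on the lower side (10.3%). Those on the higher side included the lipid droplet gene Hilpda (209 to 248 CPM against 129 and 166 CPM) and the lactate transporter gene Slc16a3.

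The promoters of the NK genes that moved were read for the core letters of the interferon-stimulated response element, GAAANNGAAA, on both strands, in the window from 250 bases before to 50 bases after the gene start (RefSeq, build GRCm38.p6). A match was present in 4 of the 22 called genes that have a promoter in that table (18.2%), against 3.99% of all 27025 genes. Of the matches 3 belong to genes that fell and 1 to a gene that rose, so the letters were present on both sides. The 40 bases around each match upstream of the start are shown because these genes moved in NK cells; capitals mark the match.
Ifitm2, chr7:140955988-140956027, minus strand: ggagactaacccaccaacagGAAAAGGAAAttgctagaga
Ifi206, chr1:173491339-173491378, minus strand: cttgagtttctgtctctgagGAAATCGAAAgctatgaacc
Trim30a, chr7:104465210-104465249, minus strand: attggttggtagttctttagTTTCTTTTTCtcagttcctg
Trim30d, chr7:104507871-104507910, minus strand: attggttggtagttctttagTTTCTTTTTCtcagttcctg
The match began 46 bases before the start in Ifitm2, 40 in Ifi206, 36 in Trim30a and 41 in Trim30d, and another annotated start of Trim30a also held one just after the start. The Trim30a and Trim30d windows read alike, and reads of these 2 neighbouring genes may not be separable. The match is a description of letters and was not tested as a binding site.

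The NK differences were then read within the 2 kinds of NK cluster, a division chosen after the values were seen. Clusters 19 and 26 together had 316 cells in library 2, and clusters 20, 48 and 58 had 288. In the granzyme-led clusters 20, 48 and 58, 16 genes passed, and 12 of the 26 NK genes were among them. In clusters 19 and 26 edgeR called 0 of 5050 genes, and 21 of the 26 NK genes were measurable. These cells are part of those in which the 26 genes were chosen, so their signs there are a description. Of the 21, 20 had the same sign as in all NK cells and 16 had an unadjusted p under 0.05. Of the genes that rose in all NK cells, only AA467197 and Ifitm2 were among the 21. Ifitm1, Gzmd, Gzme, Gzmf and Myo10 were not measurable there. Ifitm2 had the opposite sign, at -0.21 ± 0.51 (SE) in clusters 19 and 26 and 2.20 ± 0.16 in the granzyme-led clusters, where it stood at 588 to 885 CPM against 158 and 166 CPM. With clusters 19 and 26 given first, the log2 fold changes were -1.52 and -0.79 for Oasl1, -1.04 and -1.24 for Herc6 and -0.96 and -1.08 for Mx1. Of these interferon genes only Herc6 in the granzyme-led clusters passed. In those clusters N297A mouse 3 lay within the Fc-enhanced range for Oasl1 (29.25 CPM, range 16.3 to 30.4 CPM). The same held for Mx1 (20.7 CPM, range 16.3 to 25.4 CPM) and Ifit2 (15.84 CPM, range 10.49 to 22.98 CPM). It also held for Trim30a (154.8 CPM, range 119.2 to 182.4 CPM) and Trim30d (31.68 CPM, range 31.47 to 58.03 CPM). Ifi206 (57.27 CPM, range 31.47 to 60.79 CPM) and Rnf213 (169.4 CPM, range 112.9 to 176.6 CPM) behaved alike. For Herc6 and Ifi44, N297A mouse 3 lay above the range, at 110.9 and 46.3 CPM. Untreated mouse 3 lay above the range for all of these genes. In the granzyme-led clusters 25 of the 26 NK genes had the same sign as in all NK cells, again as a description. Ust had the opposite sign there, at 0.04 ± 0.25 (SE), against -0.86 ± 0.17 in clusters 19 and 26. The difference between the 2 kinds of cluster was not tested, and neither was the part of their mix in the NK differences.

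Depth moved with the comparison in NK cells. The median was 9032 to 11856.5 UMIs per NK cell in Fc-enhanced mice and 6477 and 6666 in the others, and within clusters 20, 48 and 58 it was 16797 to 18041.5 against 12539.5 and 13161.5. CPM corrects for depth between summed samples, and the part of depth per cell in these differences was not tested. With equal numbers of NK cells per mouse 26 genes passed, 12 of them among the 26. Leaving out GA-aFuc mouse 2, GITR/Syn GA-aFuc mouse 3 or Untreated mouse 3 left 11, 14 or 15 genes, and leaving out GITR/Syn GA-aFuc mouse 2 or GA-aFuc mouse 3 gave 45 or 47. Without N297A mouse 3 only 3 genes passed, 2 of them among the 26, namely Ifitm1 and Ifitm2. In the 4 mice without high Xist 8 genes passed, 6 of them among the 26. The sum of 13 mitochondrial transcripts did not overlap (17763 to 19794 CPM in Fc-enhanced mice against 19822 and 20031 CPM), whereas 14 T cell transcripts did (994 to 1335 CPM against 1131 and 1160 CPM, 1 of 14 at 0).

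In the other cell types the median of the type I interferon list was between -0.34 and -0.14, and the count of members on the lower side ranged from above the share of all genes to level with it; the difference between types was not tested. In the pooled dendritic cells 10 of 19 members did not overlap on the lower side (6.86% of all genes tested there; higher side 6.61%), with a median of -0.20, although Rsad2 was higher (112 to 152 CPM against 80.5 and 101 CPM). In cDC2, which are most of those cells, it was 7 of 19 (7.65% of all genes), in monocytes 5 of 19 (10.5%; higher side 10.4%) with a median of -0.34, and in macrophages 3 of 19 (8.43%; higher side 8.56%) with a median of -0.27. In CD8 T cells it was 1 of 18, near the 5.77% of all genes (higher side 6.3%), with a median of -0.15, and there Ifitm1 (969 to 1250 CPM against 225 and 655 CPM) and Ifitm2 (263 to 533 CPM against 181 and 259 CPM) did not overlap on the higher side. No member passed in these types. The types come from the same 6 mice and do not replicate each other.

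**Figure D4:**
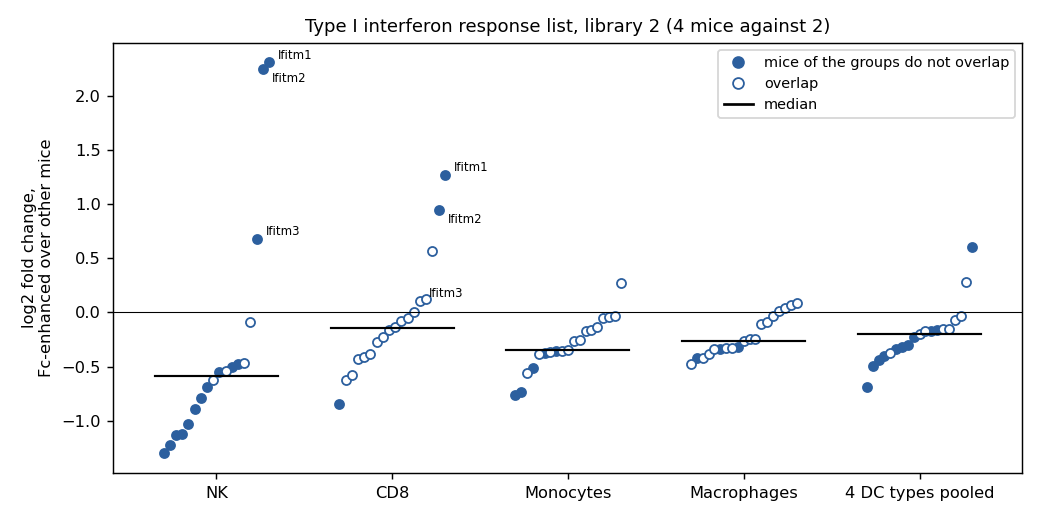
Log2 fold change (vertical axis) of each measured member of the type I interferon response list in 5 cell classes of library 2, Fc-enhanced over other mice. Filled points are genes whose mice do not overlap between the groups, and bars are medians. The medians run from -0.58 in NK cells to -0.15 in CD8 T cells, with Ifitm1 and Ifitm2 set apart on the higher side in NK and CD8 cells.

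In CD8 T cells, 2 granzyme genes rose. Gzma stood at 776 and 452 CPM in the GA-aFuc mice and 603 and 830 CPM in the GITR/Syn GA-aFuc mice, against 226 CPM in the N297A and 283 CPM in the untreated mouse (1.38 ± 0.21 SE, edgeR adjusted p = 0.0425). Gzmb stood at 3382, 2413, 2885 and 3331 CPM in that order, against 1141 and 1766 CPM (1.04 ± 0.17 SE, adjusted p = 0.0425). Both genes were higher in 4 of 4 Fc-enhanced mice. Both calls were lost with equal cells per mouse and in a fit with 4 treatments. The Gzmb call was also lost for the GITR/Syn GA-aFuc mice alone. The Gzma call was lost without N297A mouse 3 (adjusted p = 0.697), Untreated mouse 3 or GITR/Syn GA-aFuc mouse 3, and the Gzmb call without N297A mouse 3, GITR/Syn GA-aFuc mouse 3 or GA-aFuc mouse 2 (0.0557 to 0.697). Neither Klra1, a Ly49 receptor gene (11.9 to 41.4 CPM against 0 and 1.5 CPM, adjusted p = 0.0884), nor Tox, a transcription factor gene of exhausted T cells (124 to 250 CPM against 345 and 444 CPM, adjusted p = 0.172), passed. The macrophage gene Lyz2 was 65.5 to 129 CPM against 45.1 and 45.3 CPM in these cells, and the sum of 12 macrophage transcripts overlapped (1477 to 2724 CPM against 1269 and 1756 CPM); its part in the result was not tested. Of 16 glycolysis and hypoxia genes 5 did not overlap on the higher side (6.3% of all CD8 genes), and of 13 mitochondrial transcripts 6 did not on the lower side (5.77%). Their sums were 15744 to 17738 CPM against 18798 and 19155 CPM.

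**Figure D5:**
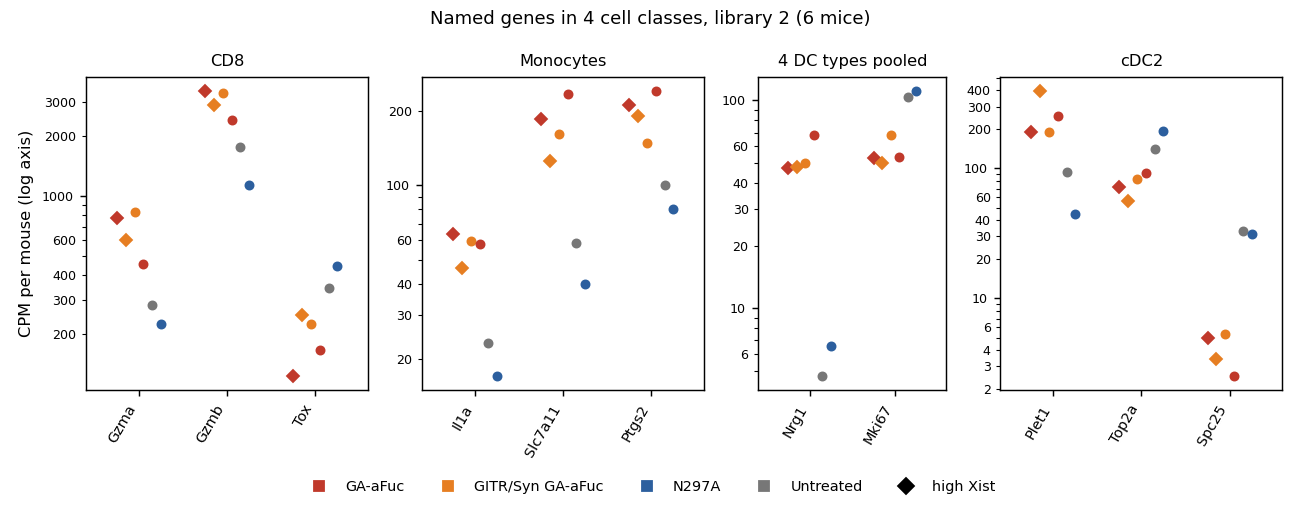
CPM per mouse (vertical log axis) for named genes in CD8 T cells, monocytes, the 4 dendritic cell types pooled and cDC2 of library 2. Colours are treatments and diamonds the 2 high-Xist mice. Gzma, Gzmb, Il1a and Nrg1 passed the adjusted threshold with all 4 Fc-enhanced mice above both others, and the remaining genes did not pass.

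In monocytes, Il1a, the gene of the cytokine interleukin 1 alpha, was the only gene to pass. It stood at 63.6 and 58.1 CPM in the GA-aFuc mice and 46.6 and 59.6 CPM in the GITR/Syn GA-aFuc mice, against 17.1 CPM in the N297A and 23.1 CPM in the untreated mouse (1.51 ± 0.17 SE, edgeR adjusted p = 0.0498). The call was lost without GA-aFuc mouse 2, GITR/Syn GA-aFuc mouse 3, Untreated mouse 3 or N297A mouse 3 (adjusted p 0.0541 to 0.970). DESeq2 called 65 genes higher and 3 lower in the same cells. The cystine transporter gene Slc7a11 (126 to 234 CPM against 40.1 and 58.8 CPM) and Dst followed with adjusted p = 0.0748 each. Of 18 inflammatory cytokine and chemokine genes 5 did not overlap on the higher side (10.4% of all monocyte genes), among them Ptgs2, which encodes the prostaglandin enzyme COX-2 (149 to 239 CPM against 80.5 and 101 CPM), and the nitric oxide synthase gene Nos2 (113 to 201 CPM against 18.9 and 65.5 CPM). Nos2 and Slc7a11 are also leading genes of monocyte cluster 0. The sum of 10 neutrophil transcripts moved with these values (356 to 578 CPM against 300 and 320 CPM, 0 of 10 at 0), and its part was not tested.

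Genes of alternative activation, the state linked to tissue repair, were uneven between mice in the myeloid cells. Their log2 fold change was positive for 13 of 13 measured members in monocytes and 12 of 12 in macrophages. The list's median log2 fold change was 2.40 in monocytes and 2.35 in macrophages, with 4 of 13 and 4 of 12 members not overlapping on the higher side (10.4% and 8.56% of all genes) and none passing. In monocytes the PD-L2 gene Pdcd1lg2 stood at 95.1 and 128 CPM in the GA-aFuc mice but 33.1 and 20.2 CPM in the GITR/Syn GA-aFuc mice, against 8.20 and 18.1 CPM. In macrophages the mannose receptor gene Mrc1 stood at 189 and 320 CPM, then 195 and 108 CPM, against 56.0 and 58.7 CPM (1.82 ± 0.37 SE, edgeR adjusted p = 0.722), and the lectin gene Mgl2 at 12.0 and 26.5 CPM, then 7.70 and 21.7 CPM, against 2.34 and 1.67 CPM. Il1a was also higher in macrophages, at 13.3 to 17.0 CPM against 7.51 and 3.63 CPM, and did not pass (adjusted p = 0.722). The endothelial lipase gene Lipg and the cyclin gene Ccnd3 had the smallest p-values among lower macrophage genes, with log2 fold changes of -2.45 ± 0.36 and -1.04 ± 0.19 (SE) and the same adjusted p of 0.722.

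In the 4 dendritic cell types pooled, Nrg1, the gene of the growth factor neuregulin 1, rose. It stood at 47.3 and 68.0 CPM in the GA-aFuc mice and 47.9 and 49.8 CPM in the GITR/Syn GA-aFuc mice, against 6.58 CPM in the N297A and 4.74 CPM in the untreated mouse (3.19 ± 0.37 SE, edgeR adjusted p = 0.00342). The call was lost without either of the 2 other mice, and also without the 2 high-Xist mice, both Fc-enhanced. In cDC2 alone Nrg1 (23.1 to 51.9 CPM against 5.57 and 3.50 CPM) and the epithelial adhesion gene Plet1 (190 to 393 CPM against 44.6 and 94.4 CPM) both had an adjusted p of 0.103. Spc25, a kinetochore gene, was 2.55 to 5.34 CPM against 31.6 and 33.2 CPM, with the same adjusted p. Of 19 measured proliferation genes in cDC2, 11 did not overlap on the lower side (7.65% of all cDC2 genes) and none on the higher (6.96%), and the median was -1.11, with Top2a at 56.3 to 91.7 CPM against 195 and 142 CPM. With cluster 64 left out only 6 of these genes passed the filter on low counts, 0 of them did not overlap on the lower side and their median was 0.32; these medians cover different genes and cannot be compared. The hypoxia gene Vegfa was 51.2 to 56.8 CPM against 31.6 and 19.2 CPM in cDC2, where 6 of 16 glycolysis and hypoxia genes did not overlap on the higher side.

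The antibody's target and the receptors for its Fc part did not pass the test in any type named here. Tnfrsf18 stood at 104 to 132 CPM in NK cells of Fc-enhanced mice against 108 and 95.5 CPM (0.18 ± 0.15 SE), and at 200 to 288 CPM against 226 and 283 CPM in CD8 T cells (-0.02 ± 0.17 SE). Among the human genes, the inhibitory receptor FCGR2B had log2 fold changes of -0.38 ± 0.24 in macrophages and -0.15 ± 0.13 in monocytes, and FCGR2A 0.02 ± 0.13 and 0.17 ± 0.17 (SE). FCGR3A, the activating receptor of NK cells, had 0.17 ± 0.25 in NK cells and 0.00 ± 0.14 in macrophages; it shares nearly all of its sequence with FCGR3B, so their separate counts are uncertain. The high-affinity receptor FCGR1A did not overlap on the lower side in monocytes (72.5 to 126 CPM against 148 and 149 CPM) and macrophages (148 to 235 CPM against 242 and 316 CPM). It did not pass in either (-0.49 ± 0.19 and -0.46 ± 0.19 SE; edgeR adjusted p = 0.433 and 0.722).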

How the data were processed

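CD45+ tumour cells of 12 mice were annotated by the authors in a deposited table with treatment, 58 clusters and 10 cell types. Library 2 was also deposited as raw UMI counts per gene and barcode, made by the authors with Cell Ranger 9.0.0 on a combined GRCh38 and GRCm39 reference, per the file headers and the submitters' processing notes. These sources do not give how cells were filtered, clustered or cleared of doublets. Only annotated barcodes were kept, no doublet caller was run, and library 1 counts were not analysed here.

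Cells per cluster and mouse were tested in edgeR 4.0.16 (quasi-likelihood, R 4.3.3), with the mouse's annotated cells as library size and library as covariate. Exact two-sided permutations moved mice within library. For expression, counts were summed per mouse and type (at least 10 cells), filtered with filterByExpr, scaled by TMM and tested with edgeR, with Benjamini-Hochberg adjustment over all genes of the type. DESeq2 1.42.0, other scalings, filters, denominators and omitted mice were alternatives. Scripts were tested on simulated data.

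Clusters named are those with an unadjusted p under 0.05 and every CD4 and Treg cluster; NK clusters 20, 48 and 58 and monocyte cluster 0 were added with their values in view. Genes named by rule are the 6 highest and 6 lowest called folds per type, the 3 smallest p-values where fewer than 5 passed, list members with the smallest p, Tnfrsf18 and the human FCGR genes. Any other gene named was chosen with its values in view. The members, lists and comparisons were chosen with earlier results of these data known. P-values measure the spread between these mice, and edgeR pools part of that spread over genes or clusters. In the expression tests the spread of the second group also holds any difference between N297A and untreated mice.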

Additional observations from a re-analysis of the deposited data

Results flagged for a closer look

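In 6 of 140 groups of mice looked at, 1 mouse stood apart by Dixon's test, where chance gives about 1 in 20. Plasmacytoid dendritic cells held 0.519% of cells in GA-aFuc mouse 3, above the other Fc-enhanced mice. Monocyte cluster 21 held 3.29% in N297A mouse 3, above the other 5 mice of its group. In NK cells, GITR/Syn GA-aFuc mouse 2 had the highest Gzme (806 CPM), and GITR/Syn GA-aFuc mouse 3 had the highest Tox (64.5 CPM) and Ifitm3 (344 CPM) of the 4 Fc-enhanced mice. In pooled dendritic cells GA-aFuc mouse 3 had the highest Nrg1 (68.0 CPM). The share of annotated CD4 cells differed between the 2 Fc-enhanced antibodies by 1.11 on the log2 scale, GA-aFuc above GITR/Syn GA-aFuc.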

How the results depend on the processing

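Treg cluster 50 stayed past the threshold under the omission of each of the 12 mice, and lost it only in the exact permutations, with an adjusted p of 0.0644 over both libraries; in 1 library alone the smallest exact p is 0.0667. The count of clusters past the threshold, 3, became 0 in the exact permutation (over both libraries and in library 1 or 2 alone) and with clusters averaging at least 10 cells per mouse. That last filter removed clusters 50 and 64 before testing, so it gives no result for them. Cluster 19 was retested there, with an adjusted p of 0.0767 in edgeR. It became 1 with RLE factors, in library 1 alone, in library 2 alone, without macrophages and monocytes in the denominator, and for GA-aFuc alone. The count of types, 2, became 0 in the exact permutation of either library and 1 with RLE factors, in each library alone, with the other denominator, in the 4-treatment fit, for either antibody alone and without the 2 high-Xist mice. With the other denominator macrophages were not among the types tested, so that count gives no result for them. Within types the count of 1 became 0 in the exact permutation and in each library alone. In CD8 T cells the count of 2 became 8 with DESeq2, 40 without a filter, 1 with equal cells or 4 treatments, 15 without high-Xist mice, 8 for GA-aFuc alone and 5 without clusters led by another type. With equal cells or 4 treatments neither Gzma nor Gzmb passed. In cDC2 0 became 1 with DESeq2, without a filter or without such clusters, 29 with 4 treatments, 27 for GA-aFuc and 6 for GITR/Syn GA-aFuc. In macrophages 0 became 6 with DESeq2 and 1 without high-Xist mice. In monocytes 1 became 68 with DESeq2, 0 with RLE factors or at least 10 CPM, 23 without a filter, 9 with equal cells or without high-Xist mice, 42 with 4 treatments, 88 for GA-aFuc and 5 for GITR/Syn GA-aFuc. In NK cells 26 became 8 without high-Xist mice, 13 for GA-aFuc, 53 for GITR/Syn GA-aFuc, 0 in clusters 19 and 26 and 16 in clusters 20, 48 and 58. In pooled dendritic cells 1 became 2 without a filter or with 4 treatments and 9 for GA-aFuc. Without high-Xist mice it stayed 1, but the gene was another and Nrg1 did not pass. The cause was not tested. Leaving out 1 mouse gave 1 to 4 clusters, 1 to 2 types, 0 to 2 within types, 0 to 15 genes in CD8, 0 to 11 in cDC2, 0 to 1 in macrophages, 0 to 7 in monocytes, 3 to 47 in NK and 0 to 2 in pooled dendritic cells; where it leaves 1 mouse in a group, that mouse is assumed to vary like the others. The direction turned for Ifitm2 in clusters 19 and 26 (-0.21) and Ust in clusters 20, 48 and 58 (0.0372). Alternatives by single antibody for shares, permutation in 1 library, omitted clusters, legacy quasi-likelihood and reassignment were chosen after seeing the data. No paired analysis was possible because replicate numbers were given in barcode-run order and pair no mice.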
